A study of Mus musculus with 6 samples.

Results

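The ribosome of the cytosol is built from ribosomal RNA and a fixed set of proteins. The genes of these proteins were taken by name, as Rpl or Rps followed by digits and at most one of the letters a, x or l, together with Rplp0, Rplp1, Rplp2 and Rpsa. Rows with a -ps suffix were left out. The rule found 80 of the 43074 gene names in each table, 49 of the large subunit and 31 of the small subunit. It used names only and no measured value. Of the 80 genes, 78 reached 1 TPM, the deposited unit of reads per exon length with the same total in every library, in at least 3 libraries and were tested. The other 2 were the paralogues Rpl10l, listed at 0 in every library, and Rpl39l, at 0.260, 0.172 and 0 TPM in WT and 0, 0 and 0.120 TPM in mKO.

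The large subunit joins amino acids and the small subunit reads the mRNA. Vertebrate cells make most of these proteins in matched amounts, and their mRNAs share a run of pyrimidines at the first base, through which their translation follows nutrient and growth signals such as mTORC1. A few ribosomal proteins have paralogues used in particular tissues. Rpl3l, a paralogue of Rpl3 found in skeletal muscle and heart, can take the place of Rpl3 in the ribosomes of mature muscle fibres.

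RNA was measured in soleus, a postural muscle of the hindlimb with slow and fast fibres, from WT mice and from mice labelled StarD7 mKO. StarD7 is a lipid transfer protein that carries phosphatidylcholine to mitochondria. There were 3 libraries of poly(A)-selected RNA in each group, and the series text gave 3 animals per group without tying a library to an animal. The comparison asks how the muscle transcriptome differs between the genotypes. The sources used here do not give the allele, the promoter of any recombinase, what the letter m stands for, or the age and sex of the animals. The labels name no treatment, and the groups differ in them by genotype alone. Fold changes below are mKO minus WT on the scale of log2(TPM + 1), with standard errors (SE). Adjusted p-values are from limma over all 12301 genes tested, with a threshold of 0.05.

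The reads behind the tables, recovered from the values, came to between 42928382 and 51287715 per library, and 19774 to 20207 genes were above 0. Stard7 stood at 87.5, 95.4 and 95.0 TPM in WT and at 21.8, 21.3 and 34.6 TPM in mKO. The mitochondrially encoded genes took 42.1% to 45.1% of all TPM in WT and 46.8% to 48.9% in mKO. Since TPM has a fixed sum, this bears on the level of every other gene. Muscle fibre markers were high in all libraries, with summed levels of 74300 to 79730 TPM in WT and 67228 to 70143 TPM in mKO, and 8 lymphocyte markers together reached at most 0.756 TPM, with Cd3e at 0 in all 6. In whole muscle, fewer cells of a type and less RNA per cell cannot be told apart. One library stood apart from its group for the genes described here: WT replicate 3 had the lowest WT value for 77 of the 78 tested ribosomal protein genes. The exception was Rpl3l. Results that rest on this library are given with and without it.

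The start sites show how the pyrimidine run at the annotated start differs between members. The windows below run from 60 bases before to 20 bases after the annotated start, 5′ to 3′, from RefSeq (build GRCm38.p6). Capitals mark the longest run of C or T on the strand of the gene that holds the start base or begins within 5 bases of it. Rpl7a was chosen as the longest run, Rplp2, Rpl38 and Rpl18 as members among those with the largest differences between genotypes, Rps6 as the known target of growth signalling, and Rpl10 and Rpl3l as members that departed from the others in the expression data.
Rpl7a, chr2:26910747-26910826, plus strand: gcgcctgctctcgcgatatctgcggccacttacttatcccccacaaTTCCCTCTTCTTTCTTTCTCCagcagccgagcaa
Rplp2, chr7:141447591-141447670, plus strand: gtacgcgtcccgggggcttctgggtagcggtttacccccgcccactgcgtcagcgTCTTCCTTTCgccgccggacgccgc
Rpl38, chr11:114668520-114668599, plus strand: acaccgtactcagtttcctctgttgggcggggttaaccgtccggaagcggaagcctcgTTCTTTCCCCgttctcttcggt
Rpl18, chr7:45718011-45718090, plus strand: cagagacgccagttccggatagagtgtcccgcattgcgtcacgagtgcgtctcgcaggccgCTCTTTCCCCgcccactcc
Rps6, chr4:86857348-86857427, minus strand: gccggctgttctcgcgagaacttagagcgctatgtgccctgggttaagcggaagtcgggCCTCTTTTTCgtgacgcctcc
Rpl10, chrX:74270756-74270835, plus strand: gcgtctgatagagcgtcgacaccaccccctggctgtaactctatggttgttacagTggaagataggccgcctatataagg
Rpl3l, chr17:24727766-24727845, plus strand: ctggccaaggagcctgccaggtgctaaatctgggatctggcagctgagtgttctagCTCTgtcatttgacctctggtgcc

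The run measured 21 bases at Rpl7a, 10 bases at Rplp2, Rpl38, Rpl18 and Rps6, 4 bases at Rpl3l and 1 base at Rpl10. Other members with large differences had 3 bases (Rpl37a), 2 bases (Rpl24), 4 bases (Rpl13) and 9 bases (Rps27). Of members with a higher mean in mKO, Rps13 had 2 bases and Rps10 had 13. The windows shown are thus no guide to the run by direction of change, nor to its usual length. Of the 80 genes, 60 were matched by symbol in the RefSeq table. Their median run at the start was 4 bases, against 3 over all genes of the table. A run of 8 or more bases at the start was present in 18 of the 60, which is 30.0%, against 6.29% of all 27025 genes of the table. Anywhere within 50 bases of the start, a run of that length was present in 49 of the 60, or 81.7%, against 35.7% of all genes. Rpl10 had a run of 10 bases in this wider window and Rpl3l a run of 9. A gene can start at other bases than the annotated one, so a short run says only that the letters are not at this position.

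Ribosomal protein mRNAs were among the abundant transcripts of soleus. Their median level, averaged over the 6 libraries, was 163 TPM, and 59 of the 80 had a mean above 100 TPM. The highest was Rplp1, a protein of the stalk that recruits elongation factors, at 1246, 1258 and 1043 TPM in WT and 1049, 1141 and 1029 TPM in mKO. WT replicate 3 lay with the mKO libraries, so the groups overlapped. Its partner Rplp0, the base of the stalk, followed at a mean of 794 TPM, then Rps15 at 580 TPM, Rpl23a at 556 TPM and Rpl36 at 510.2 TPM. Rpl3l was eighth, at 465 TPM, above most of the general ribosomal protein genes. At the low end were Rps15a at 35.8 TPM, Rps19 at 39.2 TPM, Rpl35a at 49.6 TPM, Rpl3 at 50.6 TPM and Rpl10 at 55.5 TPM. These are levels per length of all exons of a gene, and neighbours in the order mostly differed by less than the spread between libraries. That length was 1.0 to 6.79 times the principal transcript of the gene, so the order depends on the length used. It was 6.79 times for Rpl35a, 6.05 for Rps19, 2.40 for Rpl10, 2.35 for Rpl3 and 1.21 for Rps15a. For Rplp1 and Rpl36 it was 1.0 and for Rpl3l 1.19.

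**Figure D1:**
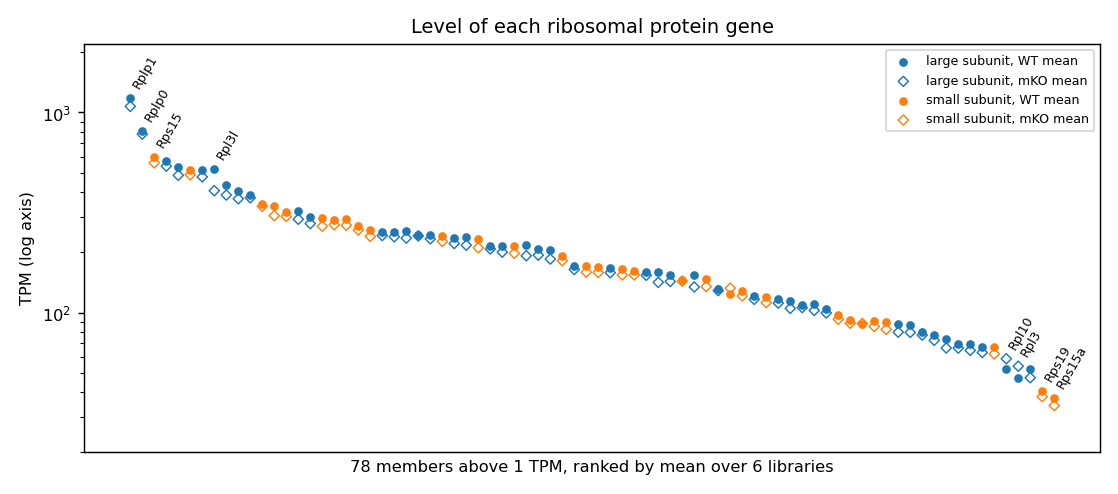
Mean TPM of 78 ribosomal protein genes (log axis) in WT (filled circles) and mKO (open diamonds), ranked by the mean over 6 libraries and coloured by subunit. Rplp1 is highest at 1128 TPM, Rpl3l lies among the highest at 465 TPM and Rpl3 near the low end at 50.6 TPM. Levels are per length of all exons, and the order depends on that length.

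Between the genotypes, the ribosomal protein genes differed little, nearly all with a slightly lower mean in mKO. Of the 78, 74 had a lower mean in mKO and 4 a higher one, namely Rpl3, Rpl10, Rps13 and Rps10. The median change was −0.09, with quartiles of −0.12 and −0.06, against a median of −0.01 and quartiles of −0.09 and 0.07 over all genes tested. When TPM was rescaled after removal of the mitochondrially encoded genes, the direction turned: the median was 0.03, with 20 genes lower and 58 higher, while the median of all genes moved to 0.09. Relative to the median of all genes, the median of the ribosomal protein genes was lower by a similar amount under both scalings, at −0.07 and −0.06. The 47 large subunit genes and the 31 small subunit genes lay close together, with medians of −0.09 and −0.08.

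No single ribosomal protein gene passed the threshold of 0.05 (limma). Of all genes tested, 0.52% did, 0.423% lower and 0.0976% higher in mKO. Limma-voom on the recovered reads also called none, against 0.821% of all genes. At shares this small, none among 78 genes is near the background. At an unadjusted p under 0.05 there were 3 genes, Rpl3l, Rpl10 and Rpl29, or 3 of 78 against a background of 10.7%. The groups did not overlap for 4 of 78 genes, 5.13%, while this held for 16% of all genes. Of these, 2 were lower in mKO (Rpl3l and Rpl29, background 10.3%) and 2 were higher (Rpl10 and Rps13, background 5.67%). The shares by unadjusted p and by overlap lay under their backgrounds, but the genes moved together between libraries and are not independent. With the mitochondrially encoded genes left out, the groups did not overlap for 5 of 78 genes, against 26.6% of all genes. Of these 5, 1 was lower in mKO (background 2.71%). The smallest adjusted p was 0.0549, for Rpl3l, and the next was 0.369, for Rpl10.

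**Figure D2:**
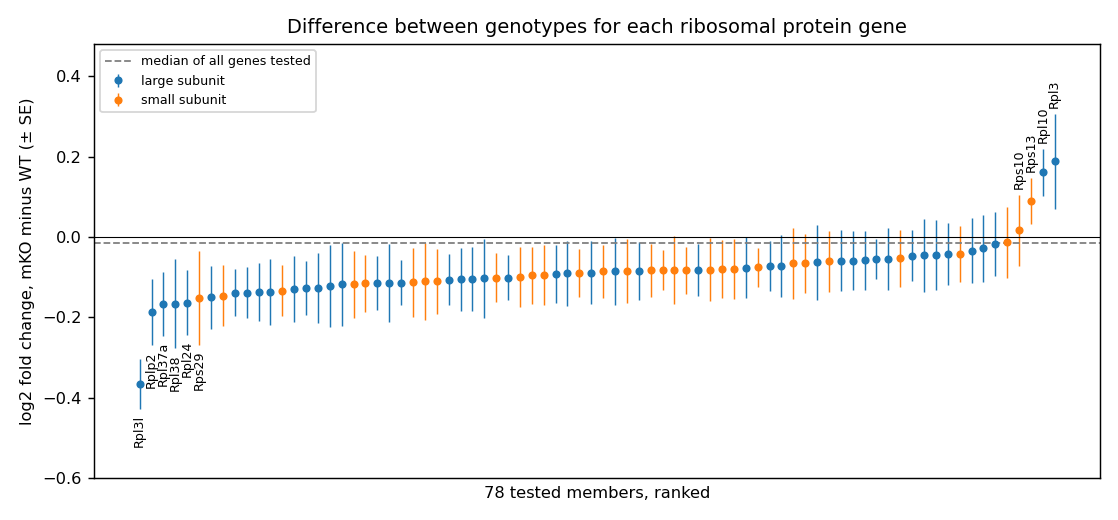
Log2 fold change (mKO minus WT, with SE) of the 78 tested ribosomal protein genes in rank order, by subunit. Nearly all lie slightly below 0, with a median of −0.09, while Rpl3l stands apart at −0.37 and Rpl3, Rpl10, Rps13 and Rps10 lie above 0.

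The genes moved together from library to library. Measured against the WT mean of each gene, the median of the 78 was 0.09, 0.06 and −0.16 in WT replicates 1, 2 and 3, and −0.10, −0.04 and −0.13 in mKO replicates 1, 2 and 3. WT replicate 3 was thus the lowest of the 6 libraries, and the groups overlapped. It was the lowest of all 6 for 42 genes, and it lay below the mKO mean for 68. The same library medians over all genes were 0.01, 0.03 and −0.04 in WT and −0.05, 0.04 and −0.03 in mKO. Both subunits followed the same course, with −0.16 and −0.15 for large and small subunit genes in WT replicate 3.

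The size of the difference depended on single libraries, and most on WT replicate 3. The median change was −0.06 without WT replicate 2. It was −0.08, −0.12 and −0.07 without mKO replicates 1, 2 and 3. Without WT replicate 1, the median change was −0.05 (all genes −0.01), and 13 of the 78 genes were above 0. Without WT replicate 3, the median change was −0.16 (all genes −0.03), and the groups did not overlap, with mKO lower, for 66 of the 78 genes, against 19.7% of all genes. With each of the other libraries left out, this held for 2 to 10 of the 78, against 12.3% to 20.4% of all genes. WT replicate 3 was singled out by these same genes, which moved together, so the 66 genes are no separate support for a genotype difference. None of the 78 genes passed the adjusted threshold, which 0.0982% of all genes did (limma), so a count of none is near the background. In WT replicate 3 the summed level of slow fibre markers was the lowest of the 6 (18059 TPM, against 21880 and 23431 TPM in the other WT libraries and 19478 to 27777 TPM in mKO). Its immediate early genes, which respond to handling and stress, were the highest at 423 TPM, against 268 to 317 TPM in the other 5 libraries. Its satellite cell and myoblast markers were the lowest at 43.0 TPM, against 59.8 to 89.9 TPM elsewhere. The part of these in the result was not tested.

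**Figure D3:**
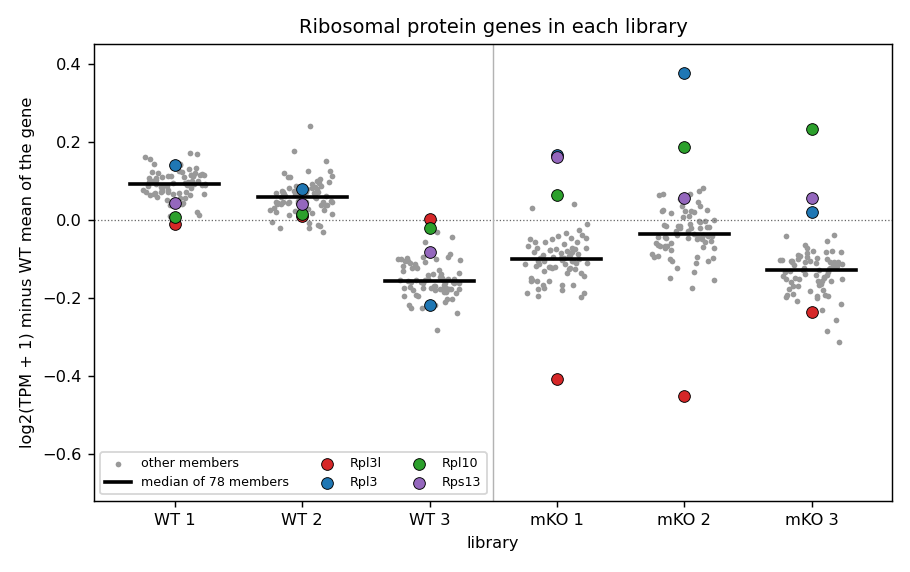
Each point is a ribosomal protein gene in a library, as log2(TPM + 1) minus the WT mean of that gene, and bars are medians of the 78 genes. The median of WT replicate 3 (−0.16) lies below those of the mKO libraries (−0.13 to −0.04) and those of the other WT libraries (0.06 and 0.09) lie above them, Rpl3l (red) lies at or near 0 in all WT libraries, and Rpl3, Rpl10 and Rps13 lie above the median in each mKO library.

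The share of all TPM held by the 80 genes was 1.87%, 1.83% and 1.60% in WT and 1.64%, 1.70% and 1.59% in mKO. The means were 1.77% ± 0.148 and 1.64% ± 0.0526 (SD, n = 3 each), and the value of WT replicate 3 lay among those of mKO. Of the TPM that is not mitochondrially encoded, the share was 3.30%, 3.17% and 2.91% in WT and 3.20%, 3.20% and 3.08% in mKO. On that base the mKO mean was 0.0346 percentage points higher instead of 0.122 points lower. The differences were smaller than the spread among the WT libraries on both bases.

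Rpl3l had the largest difference in size of the 78 genes on the deposited scale. With the mitochondrially encoded genes removed it was at −0.25 and Rpl3, at 0.31, was larger in size. It stood at 519, 526 and 524 TPM in WT and at 394, 382 and 443 TPM in mKO. All 3 mKO libraries lay below all 3 WT libraries, and the WT values were nearly the same as each other, with WT replicate 3 in their midst. The mean was 523 ± 3.96 TPM in WT and 406 ± 32.5 TPM in mKO (SD, n = 3), which is 77.7% of WT. This difference, −0.37 on the log2 scale (SE 0.06), missed the threshold with an adjusted p of 0.0549 (limma). Without mKO replicate 3, the mKO library with the highest Rpl3l and the highest Stard7, the change was −0.43 and passed (adjusted p = 0.0161, limma). Over the 14 alternatives its change ranged from −0.43 to −0.25 and its adjusted p from 0.0161 to 0.287 (limma), and in the fit as designed and every alternative its change was the most negative of the ribosomal protein genes.

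Rpl3, the general form, which reaches towards the peptidyl transferase centre, stood at 51.8, 49.7 and 40.2 TPM in WT and at 52.8, 61.3 and 47.6 TPM in mKO. The groups overlapped, and WT replicate 3 was again the lowest. On the log2 scale the difference was 0.19 (SE 0.12, adjusted p = 0.640, limma). Its size rested on single libraries: it was 0.08 without WT replicate 3, 0.09 without mKO replicate 2 and 0.27 without mKO replicate 3. Against the median of the ribosomal protein genes of the same library, Rpl3 lay at 0.05, 0.02 and −0.06 in WT and at 0.27, 0.41 and 0.15 in mKO, on the log2 scale relative to WT. By this measure the 3 mKO libraries were above the 3 WT libraries, and the same held for Rpl10, Rps13, Rps10, Rpl17 and Rpl5. Rpl3l by the same measure lay at −0.10, −0.05 and 0.16 in WT and at −0.31, −0.41 and −0.11 in mKO, without overlap, although mKO replicate 3 and WT replicate 1 were close. Other members also lay lower in mKO without overlap by this measure, among them Rpl37a, Rpl24, Rpl13 and Rps27.

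The ratio of Rpl3l to Rpl3 was 10.01, 10.6 and 13.0 in WT and 7.45, 6.24 and 9.31 in mKO. Every mKO ratio lay below every WT ratio. The mean ratio was 11.2 ± 1.59 in WT and 7.67 ± 1.55 in mKO (SD, n = 3). On the log2 scale the ratio was lower in mKO by a difference of −0.56 (exact two-sided permutation p = 0.1, the smallest that 3 against 3 can give, adjusted p = 0.2 over 6 pairs). A ratio within a library does not depend on how the library was scaled. The TPM of Rpl3l was above that of Rpl3 in every library.

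How far Rpl3l exceeded Rpl3 depended on the length used. Over the union of all annotated exons, as in the deposited values, Rpl3 counted 3175 bases and Rpl3l 1643. With the length of the principal transcript, 1351 and 1375 bases, the ratio was 5.70 ± 0.811 in WT and 3.90 ± 0.786 in mKO (SD, n = 3). The difference between genotypes on the log2 scale is the same for either length. The principal transcripts of both genes aligned over 1183 bases with 74.9% identity, and their longest identical run was 22 bases, shorter than a 50-base read. Rpl3l shared no stretch of 50 bases with any other gene of the annotation, while 85.6% of such stretches of Rpl3 occur also in other genes or pseudogenes. The sources used here do not give how reads of such stretches were assigned. The level of Rpl3, and with it the size of the ratio, is therefore uncertain.

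Summed, Rpl3 and Rpl3l stood at 570, 576 and 564 TPM in WT and at 447, 443 and 491 TPM in mKO, without overlap. The higher Rpl3 level in mKO was thus small beside the lower Rpl3l level. Rpl3l made up 2.78%, 2.87% and 3.28% of the TPM of the 80 genes in WT and 2.41%, 2.25% and 2.78% in mKO. WT replicate 1 and mKO replicate 3 were equal at this precision.

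Markers of fast fibres had lower levels in the same libraries. Their summed level was 44797, 51305 and 47165 TPM in WT and 27581, 26960 and 34671 TPM in mKO, all 12 markers had a lower mean in mKO, 5 of them past the threshold (limma), and none was at 0 in any library. In mKO replicate 3, which had the highest Rpl3l of the mKO libraries, the fast sum was also the highest of the 3. That library also had the highest Stard7 of the 3, at 34.6 TPM against 21.8 and 21.3 TPM. Markers of slow fibres summed to 23431, 21880 and 18059 TPM in WT and 26611, 27777 and 19478 TPM in mKO, with overlap. The part of fibre type, or of the remaining Stard7 level, in the Rpl3l result was not tested.

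**Figure D4:**
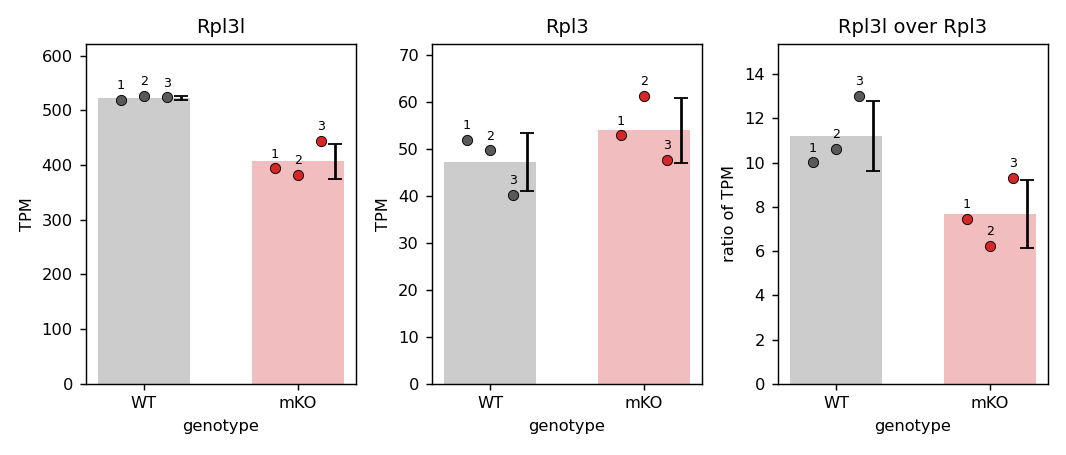
TPM of Rpl3l and Rpl3 and the ratio of Rpl3l to Rpl3 in each library. Points are libraries with their replicate number, bars are means and error bars SD (n = 3); Rpl3l is 382 to 443 TPM in mKO against 519 to 526 in WT, Rpl3 overlaps between groups, and the ratio does not.

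Of the 9 pairs of paralogues listed, 6 could be compared, and the ratio of Rpl3l to Rpl3 had the largest difference. Rpl10l and Rpl39l were under 1 TPM, and the pair of Rps4x and Rps4l was not analysed here. Next came Eef1a2, the elongation factor form of muscle and neurons, over the general form Eef1a1. This ratio was 3.32, 3.29 and 4.06 in WT and 3.27, 2.62 and 3.27 in mKO. There was no overlap, but WT replicate 2 was close to mKO replicates 1 and 3 (log2 difference −0.22, exact two-sided permutation p = 0.1, adjusted p = 0.2). Eef1a2 stood at 1695, 1615 and 1584 TPM in WT and at 1556, 1495 and 1523 TPM in mKO (log2 fold change −0.10, adjusted p = 0.554, limma), and Eef1a1 had a change of 0.12 (adjusted p = 0.775, limma). With the mitochondrially encoded genes left out, the change of Eef1a2 was 0.02.

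Rps27l is a p53-induced relative of Rps27, and its ratio had a higher mean in mKO. The ratio of Rps27l to Rps27 was 0.387, 0.386 and 0.408 in WT and 0.415, 0.433 and 0.411 in mKO. No library of one group lay within the range of the other, but the nearest libraries were close (log2 difference 0.09, exact two-sided permutation p = 0.1, adjusted p = 0.2). Rps27 shared 98.6% of its 50-base stretches with other genes, among them Rps27rt, so its reads could be divided between rows. Over the summed rows of Rps27 and Rps27rt, the ratio of Rps27l was 0.2997, 0.283 and 0.336 in WT and 0.305, 0.356 and 0.315 in mKO. The groups then overlapped (log2 difference 0.09, exact two-sided permutation p = 0.4). Rpl22l1 over Rpl22 (−0.15, exact permutation p = 0.5), Rpl7l1 over Rpl7 (0.10, exact permutation p = 0.4) and Rpl36al over Rpl36a (−0.06, exact permutation p = 0.3) overlapped between the groups.

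**Figure D5:**
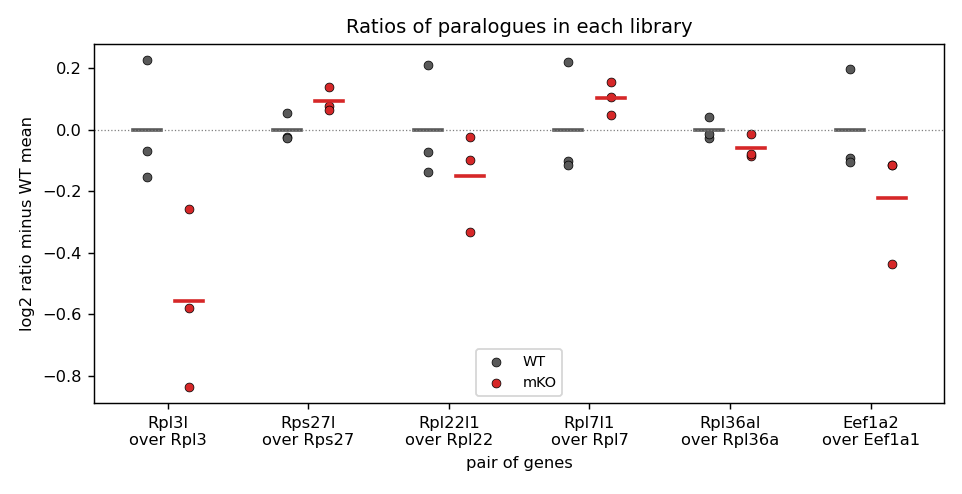
Log2 ratio of each paralogue to its general form, minus the WT mean of that pair, in 3 WT (grey) and 3 mKO (red) libraries, with bars at group means. The mKO mean lies at −0.56 for Rpl3l over Rpl3, at −0.22 for Eef1a2 over Eef1a1 and between −0.15 and 0.10 for the other 4 pairs.

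By role in the ribosome, the stalk proteins had the lowest median. The stalk genes Rplp0, Rplp1, Rplp2 and Rpl12 had a median change of −0.13, all 4 below 0 and none called. Rplp2, which forms the flexible part of the stalk with Rplp1, had the largest change of the 4, at 154, 169 and 136 TPM in WT and 133, 142 and 128 TPM in mKO (−0.19, SE 0.08, adjusted p = 0.473, limma). WT replicate 3 lay between mKO replicates 1 and 2, so the groups overlapped. Rplp0, at −0.05 (SE 0.05), had the smallest.

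Proteins near the peptidyl transferase centre were mixed. Their median was 0.03, with Rpl3 and Rpl10 above 0 and Rpl4 and Rpl8 at −0.11 and −0.13. The pair that forms a particle with the short ribosomal RNA of the large subunit and can hold back Mdm2, Rpl5 and Rpl11, had a median of −0.05. The 7 genes at the rim of the tunnel through which the new protein leaves had a median of −0.06, all below 0, among them Rpl23a at −0.08.

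In the small subunit, the 4 genes of the decoding site and mRNA channel (Rps2, Rps3, Rps15, Rps23) had a median of −0.07. Rps6, the substrate of S6 kinase, stood at 314, 298 and 261 TPM in WT and at 276, 282 and 266 TPM in mKO (−0.08, SE 0.07, adjusted p = 0.766, limma). Its groups overlapped only through WT replicate 3. Of 11 genes mutated in Diamond-Blackfan anaemia, an inherited failure of red cell formation, 10 were below 0 with a median of −0.08, and Rps19, the most often mutated, was at −0.08. The 4 X-linked genes had a median of −0.07, and Rps27a, which is made as a fusion with ubiquitin, was at −0.01. None of these genes was called in any role.

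Besides Rpl3l and Rpl3, the largest changes in size were those of Rplp2 (−0.19), Rpl37a (−0.17), Rpl38 (−0.17), Rpl24 (−0.16), Rpl10 (0.16), Rps29 (−0.15), Rpl13 (−0.15), Rps27 (−0.15), Rpl29 (−0.14) and Rpl18 (−0.14). Rpl38 is known for its part in translating Hox mRNAs in the embryo. It stood at 233, 235 and 182 TPM in WT and at 195, 209 and 173 TPM in mKO. WT replicate 3 was below mKO replicates 1 and 2, and the same held for Rpl37a, Rpl24, Rps29 and Rpl13. Rpl29, a protein at the surface of the large subunit, stood at 343, 325 and 299.6 TPM in WT and at 298, 289 and 290 TPM in mKO. Its groups did not overlap, by the narrow margin between WT replicate 3 and mKO replicate 1 (−0.14, SE 0.06, adjusted p = 0.457, limma). With the mitochondrially encoded genes left out, they overlapped.

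Rpl10, an X-linked protein that joins the large subunit late in its assembly, had a higher mean in mKO. It stood at 52.6, 52.9 and 51.6 TPM in WT and at 54.8, 59.7 and 61.7 TPM in mKO. All mKO libraries were above all WT libraries (0.16, SE 0.06, adjusted p = 0.369, limma). The row named Rpl10-ps3 carries 85.4% of the 50-base stretches of Rpl10, and it held more of the signal, at 461, 485 and 392 TPM in WT and 437, 425 and 414 TPM in mKO. Summed, the rows stood at 514, 538 and 443 TPM in WT and 492, 484 and 475 TPM in mKO, with overlap and a log2 change of −0.04. The level and the direction of Rpl10 alone are therefore uncertain.

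Rps13, of the small subunit, stood at 127.9, 127.8 and 117 TPM in WT and at 139, 129 and 129 TPM in mKO. The groups did not overlap, but WT replicates 1 and 2 lay just under mKO replicates 2 and 3 (0.09, SE 0.06, adjusted p = 0.644, limma). Rps10 overlapped, with a change of 0.02 (SE 0.09, adjusted p = 0.973, limma) that was below 0 without WT replicate 3. Of the 50-base stretches of Rps13, 83.0% occur in other genes or pseudogenes, and of Rps10, 51.8%.

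All 4 genes above 0 were among those that share most of their sequence with other genes. Of the 31 tested genes with more than 50% of their stretches shared, 4 were above 0, with a median of −0.08. Of the 47 with less, none was, with a median of −0.10. Over the 80 genes the median share was 43.5%. The sources used here do not give how reads of such genes were assigned, and the part of this in the result was not tested.

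Genes of the ribosome and its factors outside the name rule also held no called gene. Of 8 further ribosomal genes, 7 were below 0, with a median of −0.13. Rpl22l1 was at −0.19, Rpl36al at −0.16, Rps3a1 at −0.14, Rps27rt at −0.12, Fau at −0.09, Rack1 at −0.07 and Rpl7l1 at 0.01.

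Of 11 elongation genes, 8 were below 0, with a median of −0.09. Eef2, the factor that moves the ribosome along the mRNA, stood at 1024, 1006 and 982 TPM in WT and at 891, 881 and 892 TPM in mKO. On the deposited scale the groups did not overlap and were each narrow (−0.18, SE 0.04, adjusted p = 0.180, limma). Its kinase Eef2k was at −0.22 (adjusted p = 0.424, limma), also without overlap on that scale. With the mitochondrially encoded genes left out, the groups overlapped for Eef2 and for Eef2k. Of 40 initiation genes, 29 were below 0, with a median of −0.04. The largest in size were Eif4g3, a scaffold of the cap complex (−0.22, adjusted p = 0.187, limma), and Eif4ebp1, the repressor of cap binding that mTORC1 controls, at 0.15 (adjusted p = 0.756, limma).

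The 65 genes of ribosome assembly and RNA polymerase I had a median of −0.04, with Nop2, a methyltransferase of ribosomal RNA, at −0.29 (adjusted p = 0.335, limma) and Nhp2, of the pseudouridylation complex, at −0.22. The 25 genes that control ribosomal protein synthesis had a median of −0.05. Ddit4, an inhibitor of mTORC1 that responds to stress, stood at 48.5, 70.2 and 107 TPM in WT and at 30.8, 87.2 and 34.0 TPM in mKO, with wide overlap (−0.65, SE 0.41, adjusted p = 0.643, limma). Its highest library was WT replicate 3 and the next was mKO replicate 2, where the median of the ribosomal protein genes was −0.16 and −0.04. Any link between these was not tested. The related Ddit4l was at −0.36. The 9 tested hosts of small nucleolar RNAs, several of which also start with a pyrimidine run, had a median of −0.02, with Snhg8 at −0.18 and Snhg3 at −0.13.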

How the data were processed

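TPM values, which are reads per exon length with the same total in every library, were deposited by the authors as a table for each library, with 43074 gene names. Per the submitters' processing notes the build was GRCm39, and the sources used here do not give the aligner, counting tool or strand setting. Members and gene lists were chosen with earlier results of these data known. Limma-trend (limma 3.58.1, R 4.3.3) compared log2(TPM + 1) between genotypes, without covariates, for 12301 genes that reached 1 TPM in 3 or more libraries, with Benjamini-Hochberg adjustment. The pseudocount understates changes of low genes. Errors of means are SDs. The labels gave groups and replicate numbers, and p-values measure the spread between these samples, which may be technical. TPM times GENCODE M21 exon length gave whole reads, within 0.05, in all libraries for 93.13% of 22729 genes, which served for depth, limma-voom and length checks. Ratios were compared by exact permutation tests (scipy 1.17.1). No library repeated another of its group (chi-square over degrees of freedom at least 18.4). Named genes were the paralogue pairs, the 12 largest changes, the 5 highest levels, members by role, the further ribosomal genes, and the 2 largest changes of each list without a called gene. Rps13, Rps10 and the members at the low end of the level order were chosen after their values were seen. The test was checked on simulated data. Start sites came from RefSeq promoters (GRCm38.p6), matched by symbol. Protein sequences were not used here. Some genes that the naming rule picked are not reported here. Alternatives were other filters, pseudocounts and scalings, a replicate block, and each library left out.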

Additional observations from a re-analysis of the deposited data

How the results depend on the processing

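No ribosomal protein gene was called in the fit as designed or in 13 of the 14 alternatives. The count ranged from 0 to 1 over libraries left out, with Rpl3l called without mKO replicate 3. The count over all genes, 64, was 6 without a filter, 41 without mitochondrially encoded genes, 41 with median-of-ratios scaling, 39 with upper-quartile scaling, and 4 to 94 with single libraries left out. Stard7 lost its call without a filter (adjusted p = 0.0858, limma) and without WT replicate 2 (adjusted p = 0.0703, limma).

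Of 702 values of 51 named genes over the alternatives, 673 kept direction and side of the threshold and 26 changed sign, none of them called. With mitochondrially encoded genes removed, a step that raises all other genes in mKO, the sign turned for Rps27l (0.0641), Rpl22 (0.0726), Eef1a2 (0.0212), Fau (0.0265), Rack1 (0.0446), Rpl10-ps3 (0.0541), Rplp0 (0.0638), Rps15 (0.0225), Rpl23a (0.0338), Rpl4 (0.0117), Rps6 (0.0386), Rps27a (0.104) and Rps19 (0.0339). Rps27a also turned with median-of-ratios scaling (0.00560), upper-quartile scaling (0.00686) and limma-voom (0.0383), Rpl22 with limma-voom (0.00710), and Rpl10 when summed with Rpl10-ps3 (−0.0430). With single libraries left out, changes of both signs were found for Rps27a (−0.115 to 0.0702), Rpl22 (−0.129 to 0.0268), Rpl7l1 (−0.0212 to 0.0314), Rps27rt (−0.397 to 0.0970) and Rps10 (−0.0810 to 0.0949). The cause of these was not tested. The genotype difference in the share of TPM, −0.122 points, was 0.0346 points off the mitochondrial base and −0.207 to −0.0717 points with libraries left out. The log2 difference of the Rpl3l to Rpl3 ratio ranged from −0.708 to −0.419.

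Same-numbered libraries deviated together only weakly (correlations of 0.09, 0.05 and 0.13, each highest with its own number, as a hint from the data). The labels do not say whether they share more than a number, and these values cannot decide it. A replicate block gave 21 called genes and no ribosomal one, and a sign-flip p of 0.25 for the Rpl3l to Rpl3 ratio, the smallest that exact tests of 3 pairs allow. The analyses of summed rows, shared sequence and transcript length were added after seeing the data. Tested members had at least 1572 reads on average. Over the genes with recovered reads, libraries of a group differed by more than counting error (chi-square over degrees of freedom at least 18.4). For single members this was not tested.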
